A study of Mus musculus with 8 samples.

Results

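This report covers 8 long noncoding RNAs (lncRNAs) of the mouse kidney, 4930528G23Rik, Gm44866, Gm42723, Gm31126, Gm28905, 2700054A10Rik, 9630014M24Rik and 4930414F18Rik, which are 8 of 9578 lncRNA identifiers and of 32285 gene identifiers counted. They were chosen by name, with no numeric threshold, because their levels differed between the time points ZT4 and ZT16 in these same libraries. Their time differences are therefore given as a description, with no test. Zeitgeber time (ZT) counts hours from lights on, so that ZT4 lies in the light, inactive phase of a mouse and ZT16 in the dark, active phase. DAPI-stained and sorted nuclei from frozen kidneys of male mice were profiled by 3′ droplet RNA-seq in 8 libraries, 2 for each combination of genotype and time point, each library from a different mouse. All animals were on the C57BL/6J background, carried Bmal1lox/lox alleles, lived under 12 h of light and 12 h of dark, and drank doxycycline (2 mg/ml, with 20 mg/ml sucrose) for 2 weeks from the age of 8 weeks. The cKOt mice also carried Pax8-rtTA and LC-1 Cre, so that the drug turned on Cre recombinase in cells with an active Pax8 promoter, that is, along the renal tubule. The Ctrl mice were littermates without these transgenes. Cells outside the tubule lineage (vascular, mesangial, smooth muscle and myeloid cells) are not targets of this Cre line.

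An lncRNA is transcribed like an mRNA but is not known to code for a protein. Many lncRNAs are nuclear, low in abundance and restricted to a few cell types, and no function is stated here for any of the 8. The circadian clock is a transcriptional feedback loop in which BMAL1 (gene symbol Arntl) pairs with CLOCK or NPAS2 and activates genes through E-box elements. Among these are the Per and Cry genes, whose proteins inhibit the pair, and the Nr1d1 and Nr1d2 genes, whose proteins repress genes with ROR response elements (ROREs), Arntl itself among them. The kidney's own clock runs in most of its cells and takes part in daily rhythms of solute transport.

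Each library held 8758 to 10975 nuclei after quality control (81391 of 82784 barcodes) and 36548873 to 54500820 unique molecular identifiers (UMIs, each 1 captured RNA molecule). Barcode sequences recurred between libraries, 848 of them in 2 libraries and 3 in 3 libraries. Nuclei were clustered on mRNAs and the clusters named from marker genes, so that no lncRNA took part in naming a class. The proximal tubule class (PT-like, 26124 nuclei, 32.1%) was the most frequent of 13 named classes, and 6.13% of nuclei stayed unnamed. No cluster was named from the B cell or the T and NK cell markers. PT-like nuclei made up 27.0% to 38.1% of nuclei and 41.1% to 52.4% of UMIs per library. Within them, clusters named straight tubule (PST) from their own markers held 1501 to 1564 nuclei in 3 of the Ctrl libraries, but 521 in Ctrl ZT16 replicate 1 and 422 to 571 in the cKOt libraries. Other PT-like clusters were nearest to the PST markers but missed the limits for that name, such as 1 with 98.05% of its 1128 nuclei from 1 library. These counts thus depend on the naming limits and are not read as amounts of straight tubule. Convoluted (PCT) and straight segments were therefore not described apart.

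The targeted gene Arntl was counted in every library. In Ctrl it was at 32.3 and 27.8 UMIs per 1000000 UMIs of all genes in the library (counts per 1000000, CPM, the unit of all levels here) at ZT4 and at 133 and 133 at ZT16. In cKOt it was at 238 and 165 at ZT4 and at 242 and 213 at ZT16, above every Ctrl library. These counts cover the whole gene and not the deleted part alone, so they do not check the deletion. Of 16 clock genes (Arntl, Clock, Npas2, the Per, Cry, Nr1d and Ror genes and the output regulators Dbp, Tef, Hlf and Nfil3), 4 rose and 3 fell from ZT4 to ZT16 in Ctrl (edgeR, adjusted p under 0.05), against 0.148% of all 16165 mRNAs tested. In cKOt, 0 of the 16 passed the same edgeR test and 4 had an unadjusted p under 0.05. Of all 16069 mRNAs tested there, 0 passed and 8.35% had an unadjusted p under 0.05. The time effects of cKOt and Ctrl differed for 2 of the 16, both lower in cKOt, and for 3 of 16351 mRNAs (0.0183%). Npas2 was among them (-2.09 ± 0.21, edgeR adjusted p = 0.0436), while Arntl gave -1.95 ± 0.26 (edgeR adjusted p = 0.0896). Averaged over time points, 5 of the 16 were higher and 3 lower in cKOt than in Ctrl, against 0.948% of mRNAs. Among the higher ones were Arntl (log2 fold change 1.82 ± 0.13, SE, adjusted p = 4.86e-04) and Npas2, the partner of BMAL1 (2.92 ± 0.11, adjusted p = 1.11e-05), while Clock gave 0.29 ± 0.09 (adjusted p = 0.234).

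Promoter windows of RefSeq (GRCm38.p6, from 250 bases before to 50 after a transcript start) were listed for 5 of the 8 lncRNAs, in 8 windows. They were searched on both strands for the E-box CACGTG, which reads the same on both strands, and for AGGTCA, the core of a RORE (on the other strand TGACCT), which also forms part of other nuclear receptor sites. Of all 32851 windows of this length, 7.15% held the first and 16.3% the second. Of the 8 windows, 1 held an E-box, that of 4930528G23Rik, at position -109 from the start, and 3 held the RORE core. These 3 were overlapping windows of Gm31126, whose starts differ by single bases. No match was found in the windows of Gm28905, 2700054A10Rik and 4930414F18Rik, which says only that these letters are absent there. By gene, each motif was thus held by 1 of the 5 lncRNAs, and whether a match bears on the time differences was not tested. The windows shown are of 4930528G23Rik (chr6:148677951-148678250, minus strand) and of Gm31126 (chr13:50267611-50267910, plus strand), where a match was found. They run 5′ to 3′ on the strand of the gene, with the matches in capitals.
4930528G23Rik: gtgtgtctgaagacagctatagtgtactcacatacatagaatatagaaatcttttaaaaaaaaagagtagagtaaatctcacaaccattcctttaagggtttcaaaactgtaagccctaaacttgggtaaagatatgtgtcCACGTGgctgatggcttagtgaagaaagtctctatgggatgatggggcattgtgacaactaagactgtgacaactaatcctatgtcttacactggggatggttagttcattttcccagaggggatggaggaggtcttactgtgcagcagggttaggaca
Gm31126: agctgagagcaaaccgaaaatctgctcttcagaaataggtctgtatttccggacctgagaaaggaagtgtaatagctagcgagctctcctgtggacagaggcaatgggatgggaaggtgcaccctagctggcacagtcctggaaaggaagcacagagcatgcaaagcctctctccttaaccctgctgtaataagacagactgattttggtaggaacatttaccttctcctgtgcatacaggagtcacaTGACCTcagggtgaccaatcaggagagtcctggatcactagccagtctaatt

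7 of the 8 lncRNAs were at a higher level at ZT4 than at ZT16 in Ctrl kidneys, and Gm31126 alone was at a higher level at ZT16. In Ctrl, the libraries of the 2 time points did not overlap for any of the 8. Among all 4706 lncRNAs tested, 21.2% were lower at ZT16 without overlap and 20.4% higher. In cKOt, the time points did not overlap for 6 of the 8, against 19.6% lower and 21.7% higher without overlap among all 4620 tested. Nothing is read from these counts, because time differences chose the members. The background shares were taken on the scale of the test and the levels below are in CPM.

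**Figure D1:**
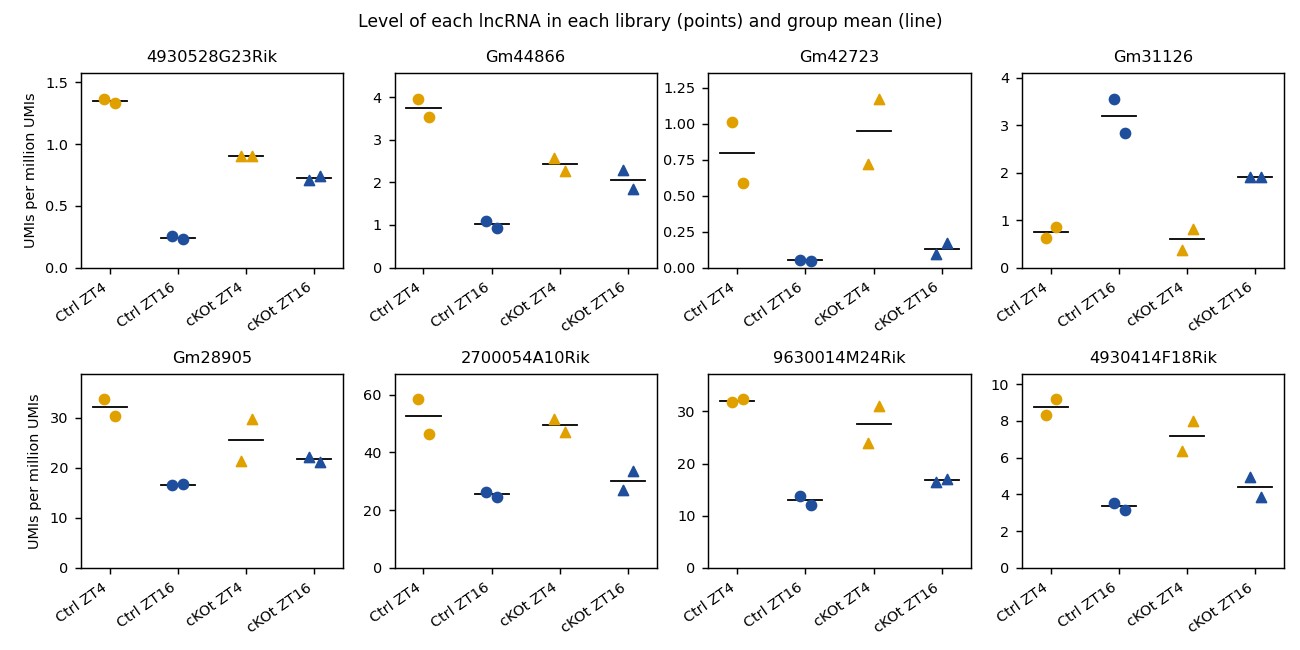
Level of each of the 8 lncRNAs in UMIs per 1000000 UMIs of all genes (vertical axis, from 0, a scale for each panel) in the 4 groups; each point is 1 library, circles Ctrl and triangles cKOt, orange ZT4 and blue ZT16, and the lines are group means. For 4930528G23Rik the ZT16 points lie at 0.257 and 0.228 in Ctrl but at 0.711 and 0.738 in cKOt.

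In Ctrl kidneys, 4930528G23Rik was at 1.37 and 1.33 CPM at ZT4 and at 0.257 and 0.228 at ZT16. The cKOt levels were 0.905 and 0.901 at ZT4 and 0.711 and 0.738 at ZT16. The Ctrl time points thus stood far apart, while the cKOt libraries lay between them and close to each other. The log2 fold change of ZT16 over ZT4 was -2.36 ± 0.36 (SE, n = 2 per group, edgeR) in Ctrl and -0.35 ± 0.32 in cKOt, and the difference of these effects was 2.02 ± 0.48. Few molecules lie behind these levels, 10 to 66 UMIs per library.

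Gm44866 had the same shape. The Ctrl levels of Gm44866 were 3.97 and 3.54 CPM at ZT4 and 1.10 and 0.936 at ZT16. In cKOt kidneys it was at 2.58 and 2.27 at ZT4 and 2.29 and 1.84 at ZT16. The cKOt time points overlapped, and again they lay between the Ctrl time points. The log2 fold change was -1.77 ± 0.27 in Ctrl and -0.27 ± 0.26 in cKOt, a difference of 1.51 ± 0.37. Per library, 41 to 175 UMIs were counted.

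Gm31126 ran the other way. In Ctrl kidneys, Gm31126 was at 0.629 and 0.849 CPM at ZT4 and at 3.56 and 2.83 at ZT16. The cKOt levels were 0.371 and 0.823 at ZT4 and 1.90 and 1.90 at ZT16. ZT16 was above ZT4 without overlap in both genotypes, and both cKOt libraries at ZT16 were below both Ctrl libraries at ZT16. The log2 fold change was 2.199 ± 0.335 in Ctrl and 1.63 ± 0.34 in cKOt, and the difference of the effects (-0.56 ± 0.48) was close to its standard error. Without cKOt ZT4 replicate 2, the time effect in cKOt was 2.29 and the difference changed sign (0.080).

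Gm42723 was low throughout, with 2 to 60 UMIs per library, and it passed the filter on low counts in Ctrl through the ZT4 group alone. The Ctrl levels of Gm42723 were 1.01 and 0.586 CPM at ZT4 and 0.0550 and 0.0457 at ZT16. In cKOt kidneys it was at 0.720 and 1.18 at ZT4 and 0.0961 and 0.169 at ZT16. The time points were apart in both genotypes. The log2 fold change was -3.79 ± 0.58 in Ctrl and -2.85 ± 0.49 in cKOt, and the effects differed by 0.95 ± 0.82.

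The other 4 lncRNAs had 139 to 2411 UMIs per library and smaller time differences in Ctrl. In Ctrl kidneys, Gm28905 was at 33.8 and 30.4 CPM at ZT4 and at 16.5 and 16.7 at ZT16. The cKOt levels were 21.3 and 29.7 at ZT4 and 22.1 and 21.2 at ZT16. Ctrl time points were apart, but in cKOt 1 ZT4 library lay among those of ZT16. Its log2 fold change was -0.83 ± 0.22 in Ctrl and -0.26 ± 0.21 in cKOt.

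The Ctrl levels of 2700054A10Rik were 58.6 and 46.4 CPM at ZT4 and 26.4 and 24.6 at ZT16. In cKOt kidneys it was at 51.5 and 47.2 at ZT4 and 27.1 and 33.4 at ZT16. Here ZT4 stayed above ZT16 in both genotypes, with log2 fold changes of -0.92 ± 0.22 and -0.74 ± 0.22. The effects differed by 0.19 ± 0.31, within 1 SE of 0, and this small difference took the other sign (-0.034) without cKOt ZT16 replicate 2.

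In Ctrl kidneys, 9630014M24Rik was at 31.7 and 32.4 CPM at ZT4 and at 13.9 and 12.1 at ZT16. The cKOt levels were 23.9 and 31.1 at ZT4 and 16.5 and 17.0 at ZT16. Both genotypes kept ZT4 above ZT16, and the Ctrl difference was the wider one (log2 fold change -1.19 ± 0.20 in Ctrl and -0.74 ± 0.20 in cKOt). The Ctrl levels of 4930414F18Rik were 8.32 and 9.20 CPM at ZT4 and 3.54 and 3.17 at ZT16. In cKOt kidneys it was at 6.38 and 7.97 at ZT4 and 4.94 and 3.84 at ZT16. This lncRNA followed the same order, with -1.27 ± 0.23 in Ctrl and -0.74 ± 0.23 in cKOt.

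**Figure D2:**
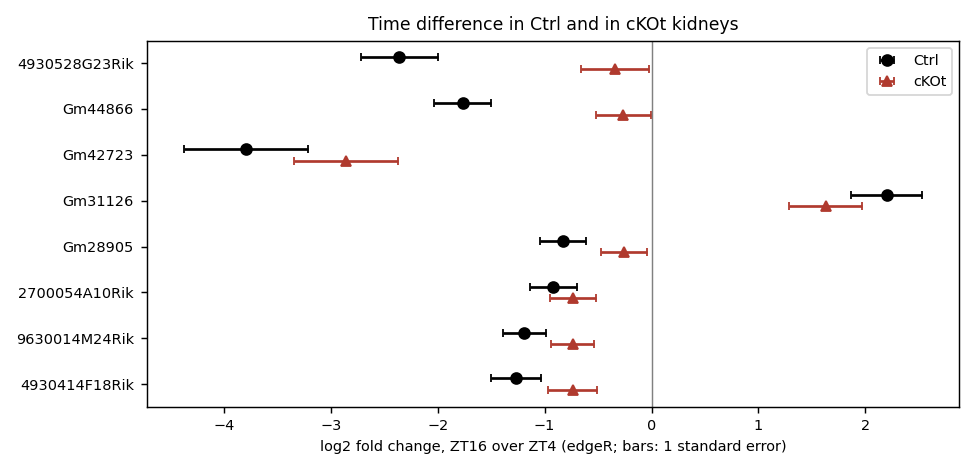
Log2 fold change of ZT16 over ZT4 (horizontal axis, edgeR, bars 1 standard error) for each lncRNA in Ctrl (circles) and cKOt (triangles). For 4930528G23Rik the estimate is -2.36 ± 0.36 in Ctrl and -0.35 ± 0.32 in cKOt, while Gm42723 and Gm31126 lie far from 0 in both.

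Over the 8, the median log2 fold change was -1.23 in Ctrl and -0.54 in cKOt, beside 0.02 and -0.04 over all lncRNAs tested. Of those lncRNAs, 27 passed the test of time in Ctrl (0.574%, 0.212% higher at ZT16 and 0.361% lower) and 21 that in cKOt (0.455%, 0.152% higher and 0.303% lower). The difference of the 2 time effects was past the threshold for 0 of 4926 lncRNAs in edgeR, with 207 at an unadjusted p under 0.05, and for 1 in DESeq2. Both time contrasts were known when the members were chosen. Of the 8, 6 were among the 27 in Ctrl and 1 was among the 21 in cKOt. Genes picked where a difference is large in 1 contrast tend to show a smaller one in another. The smaller cKOt values, and the differences of effects given above with their SE, are therefore descriptions from which no change by genotype is read. In libraries summed over all nuclei, fewer cells of a type and less RNA per cell cannot be told apart, and the levels within classes below are set beside these sums for that reason.

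Whether the lncRNAs differed between genotypes at the mean of both time points is a contrast orthogonal to time where groups have equal spread, and it was tested. The test passed for 0 of the 8 (edgeR, Benjamini-Hochberg over 4926 lncRNAs, of which 1.46% were called, 0.995% higher and 0.467% lower in cKOt), with 0 called by DESeq2. At an unadjusted p under 0.05 were 2 of the 8 and 423 of the 4926 lncRNAs. For 0 of the 8 did the 4 cKOt libraries all lie above or all below the 4 Ctrl libraries, as they did for 2.19% and 1.77% of all lncRNAs tested. Nothing is read from this count, because the time differences that chose the members also widen the range of each genotype. 7 of the 8 estimates were above 0, but the levels of the 8 correlated with each other, so these are not 8 separate signs. The median of the 8 was 0.24 on the log2 scale, beside 0.01 over all lncRNAs tested, and with normalization over lncRNAs and mRNAs together it was 0.15 beside -0.08. 4930528G23Rik gave 0.66 ± 0.24 (SE, edgeR adjusted p = 0.345), and over the alternative settings its adjusted p lay between 0.264 and 0.922. Gm42723 gave 0.97 ± 0.41 (edgeR adjusted p = 0.505). Both had very low counts in Ctrl at ZT16, 14 and 10 UMIs for 4930528G23Rik and 3 and 2 for Gm42723. These counts also enter the genotype contrast, which may thus not be free of the choice for these 2. Gm31126 was the 1 estimate below 0, at -0.37 ± 0.24 (edgeR adjusted p = 0.762). The other 5 lay between 0.18 and 0.36. This contrast used sums over all nuclei, in which the mix of cells also enters. PT-like nuclei held 47.3%, 44.7%, 45.5% and 41.1% of UMIs in the Ctrl libraries and 49.1%, 49.8%, 52.4% and 44.3% in the cKOt libraries. The part of these shares in the estimates was not tested.

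The second contrast tested was where in the kidney they were found. The members were chosen for time differences, but with earlier results of these data known. PT-like nuclei also held 41.1% to 52.4% of the UMIs of a library. The location contrast may therefore not be free of the choice, and its p-values are to be read with that limit. 6 of the 8 had enough UMIs in both PT-like and other nuclei to pass the filter on low counts from either side, and all 6 were higher in PT-like nuclei than in the other nuclei of the same libraries (edgeR with the library as a block). Of 4538 lncRNAs tested, 72.9% differed, 33.7% higher and 39.2% lower. The log2 fold change of PT-like over other nuclei was highest among these 6 for 4930414F18Rik (4.13 ± 0.12, SE, n = 8 libraries, edgeR adjusted p = 1.61e-18) and Gm44866 (3.96 ± 0.15, edgeR adjusted p = 4.06e-16). Gm31126 gave 3.08 ± 0.21 and Gm28905 2.70 ± 0.12. The preference was milder for 9630014M24Rik (1.49 ± 0.09) and for 2700054A10Rik (1.03 ± 0.09). 4930528G23Rik, which passed the filter through PT-like nuclei alone, gave 3.64 ± 0.22, and Gm42723, which passed through the other nuclei alone, gave -2.96 ± 0.44. These 2 values are descriptions, with no test. As a description too, the median of the 8 was 2.89, beside -0.09 over all lncRNAs tested.

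**Figure D3:**
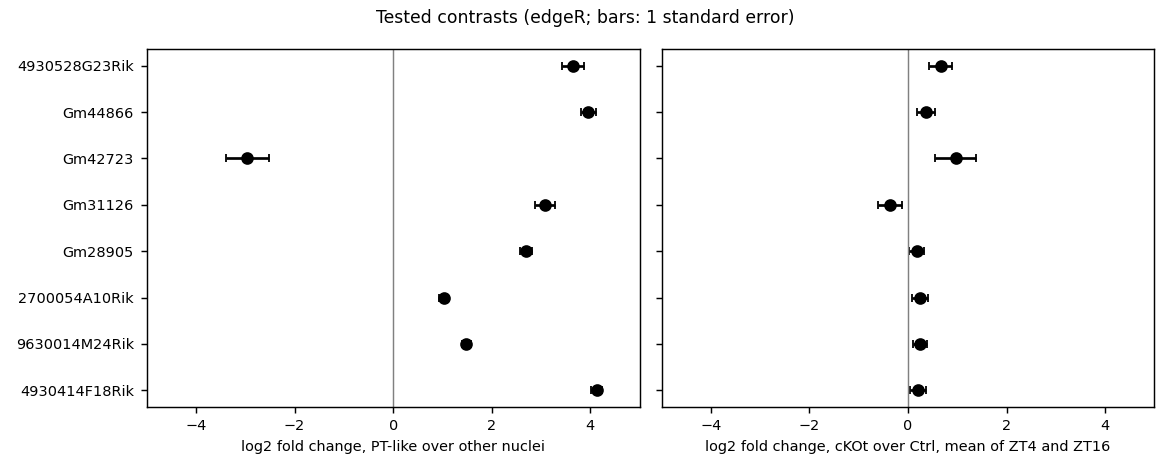
Estimates of the 2 contrasts tested (points, log2 fold change from edgeR; bars 1 standard error): PT-like over other nuclei on the left, cKOt over Ctrl at the mean of both time points on the right. On the left 7 lncRNAs lie above 0 and Gm42723 below (4930528G23Rik and Gm42723 as descriptions, with no test), and on the right all 8 lie between -0.37 and 0.97.

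Of the UMIs of 4930414F18Rik, 91.9% came from PT-like nuclei, and so did 91.1% of those of Gm44866, 89.2% of those of 4930528G23Rik and 84.8% of those of Gm31126. PT-like nuclei held 41.1% to 52.4% of all UMIs. In the PT-like class, 4930414F18Rik was at 11.6 ± 4.58 CPM, here and below per 1000000 UMIs of the class (SD over 8 libraries), above the next class, myeloid-like nuclei (1.76 ± 1.89), in 8 of 8 libraries. Gm44866 was at 4.48 ± 2.10 there and 4930528G23Rik at 1.52 ± 0.809, each above its next class in 8 of 8 libraries. Gm31126 was at 2.98 ± 2.32, above the next class, smooth muscle and juxtaglomerular-like nuclei, in 7 of 8 libraries, but that class had only 2 of its UMIs. The SDs of these levels include the time difference. Outside PT-like nuclei, the levels of these 4 rested on 26 UMIs or fewer in each named class, and their order there is not read.

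Gm42723 was counted mostly in the collecting duct, with 72.0% of its UMIs in principal-cell-like nuclei of the collecting duct (CD-like), a class of 5.77% of nuclei. It stood there at 6.84 ± 6.97 CPM, above thin limb-like nuclei (1.34 ± 1.63) and PT-like nuclei (0.0749 ± 0.113) in 8 of 8 libraries. Thin limb-like and intercalated-cell-like (IC-like) nuclei, at 1.11 ± 1.61, did not differ beyond their spread. Neither this class nor the PT-like class lies outside the targeted tubule.

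Gm28905 was highest in PT-like nuclei (41.0 ± 9.98) and next in IC-like nuclei (31.4 ± 6.26). The PT-like level was above the IC-like level in 6 of 8 libraries, so this step is within the spread. Urothelium-like nuclei (20.1 ± 6.22) and those of the connecting tubule (CNT-like, 14.7 ± 9.29) followed, and the thick ascending limb class was low (3.81 ± 1.88). 2700054A10Rik was spread over many classes, at 75.8 ± 46.5 in urothelium-like, 46.9 ± 13.4 in PT-like, 42.46 ± 22.998 in CD-like and 39.9 ± 17.6 in vascular-like nuclei. Urothelium-like nuclei were above PT-like nuclei in 6 of 8 libraries and PT-like above vascular-like nuclei in 7 of 8, and 12.6% of its UMIs lay in unnamed clusters, where its level (77.7 ± 32.0) was near that of urothelium-like nuclei. 9630014M24Rik was at 56.9 ± 33.5 in smooth muscle and juxtaglomerular-like nuclei and at 52.5 ± 21.5 in mesangial and pericyte-like (Mes/Per-like) nuclei, a step that did not exceed its spread. Mes/Per-like nuclei were above PT-like nuclei (30.8 ± 12.8) in 8 of 8 libraries. PT-like nuclei, which were more numerous and had a median of 5839 UMIs against 2468 in Mes/Per-like nuclei, gave 65.2% of its UMIs.

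**Figure D4:**
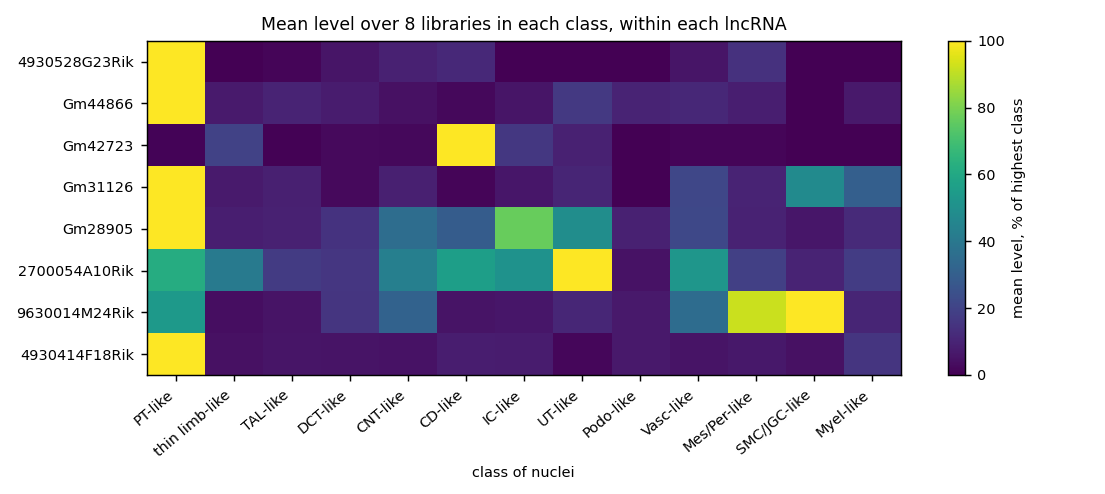
Mean level of each lncRNA (rows) over 8 libraries in the 13 named classes of nuclei (columns), as a percentage of the class with its highest mean (colour, 0 to 100%); TAL is thick ascending limb, DCT distal convoluted tubule, UT urothelium, Podo podocytes, SMC/JGC smooth muscle and juxtaglomerular, Myel myeloid. 5 rows peak in the PT-like column, Gm42723 in the CD-like one, 2700054A10Rik in the urothelium-like and 9630014M24Rik in the smooth muscle and juxtaglomerular-like one.

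Levels within a class are scaled to the UMIs of that class, so the number of its nuclei in a library does not enter them. The mix of cells within the class still does. Within PT-like nuclei, the 7 lncRNAs counted there showed the same order of time points as in the sums, without overlap for all 7 in Ctrl and for 6 of 7 in cKOt. Among all lncRNAs tested in this class, 23.9% were lower and 18.2% higher at ZT16 without overlap in Ctrl, and 18.6% and 19.6% in cKOt. 4930528G23Rik was at 2.66 and 2.53 at ZT4 against 0.524 and 0.444 at ZT16 in Ctrl, and 1.70 and 1.61 against 1.28 and 1.43 in cKOt. Its log2 fold change within the class was -2.34 ± 0.38 in Ctrl and -0.29 ± 0.34 in cKOt. Gm44866 was at 7.87 and 7.20 at ZT4 against 2.18 and 2.05 at ZT16 in Ctrl, and 4.68 and 4.09 against 4.07 and 3.72 in cKOt. The cKOt levels of both lay between the time points of Ctrl. The libraries did not contribute evenly to the clusters of this class. 3 of its 13 clusters took 88.08%, 93.78% and 98.05% of their nuclei from 1 library each and the other 10 took 26.4% to 50.9% from their largest contributor, and the part of this and of the PST-named counts in these time differences was not tested. Gm31126 was at 0.810 and 1.72 at ZT4 against 6.89 and 5.71 at ZT16 in Ctrl, and 0.568 and 1.46 against 3.05 and 3.62 in cKOt, the 1 of these that kept a wide time difference in cKOt, with log2 fold changes of 2.36 ± 0.41 and 1.71 ± 0.42. For 4930414F18Rik, the log2 fold change was -1.23 ± 0.25 in Ctrl and -0.68 ± 0.24 in cKOt. Gm42723 had 13 UMIs in the class over all libraries and no value is given.

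In CD-like nuclei, Gm42723 was at 13.8 and 9.95 at ZT4 against 0.723 and 0.561 at ZT16 in Ctrl, and 5.52 and 19.6 against 1.68 and 2.95 in cKOt (CPM). The time points did not overlap in either genotype, although the 2 cKOt libraries at ZT4 lay far apart. Behind these are 51 and 4 UMIs in Ctrl and 61 and 10 in cKOt, and the log2 fold changes were -4.01 ± 0.71 and -2.43 ± 0.62. In this class Gm42723 passed the filter on low counts through ZT4 alone in both genotypes, so these values are descriptions. The clusters joined as CD-like took 14.4% to 22.8% of their nuclei from their largest contributor. The part of the mix of these clusters in the CD-like time differences was not tested.

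Gm28905 did not show the same time difference in every class. In PT-like nuclei it was at 57.1 and 53.7 at ZT4 against 30.6 and 33.3 at ZT16 in Ctrl, and 32.7 and 45.1 against 36.5 and 38.6 in cKOt, so that its time points overlapped in cKOt. In CD-like nuclei it was at 22.1 and 17.3 at ZT4 against 1.45 and 2.80 at ZT16 in Ctrl, and 10.7 and 32.0 against 2.25 and 7.17 in cKOt. The CD-like log2 fold changes were -3.02 ± 0.59 in Ctrl and -2.16 ± 0.58 in cKOt, beside -0.70 ± 0.24 and -0.04 ± 0.25 in PT-like nuclei. Behind the CD-like values are 85 UMIs at ZT4 and 14 at ZT16 in Ctrl, and 104 and 21 in cKOt. In this class Gm28905 passed the filter on low counts through ZT4 alone in both genotypes, so these fold changes are descriptions. In CNT-like nuclei it was at 22.1 and 30.8 at ZT4 against 8.97 and 8.81 at ZT16 in Ctrl, and 14.4 and 21.3 against 3.41 and 7.53 in cKOt, again without overlap. In IC-like nuclei, where its level was also high, the time points overlapped in both genotypes, at 23.6 and 29.8 at ZT4 against 27.1 and 24.9 at ZT16 in Ctrl, and 37.7 and 36.9 against 31.0 and 40.4 in cKOt. In vascular-like nuclei, which Cre does not target, it was at 13.5 and 11.1 at ZT4 against 2.64 and 3.47 at ZT16 in Ctrl, and 11.3 and 16.5 against 4.53 and 8.09 in cKOt. The vascular-like log2 fold changes were -1.91 ± 0.40 in Ctrl and -1.15 ± 0.36 in cKOt. The differences between classes were not tested, since the time contrast chose this lncRNA.

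2700054A10Rik and 9630014M24Rik were also counted outside the tubule. In vascular-like nuclei 2700054A10Rik was at 55.5 and 52.9 at ZT4 against 25.2 and 17.3 at ZT16 in Ctrl, and 54.8 and 60.9 against 27.5 and 25.4 in cKOt. The log2 fold changes there were -1.28 ± 0.25 in Ctrl and -1.15 ± 0.24 in cKOt, and in PT-like nuclei -0.86 ± 0.26 and -0.48 ± 0.26. In Mes/Per-like nuclei, also outside the tubule, those of 2700054A10Rik were -0.60 ± 0.32 in Ctrl and -0.76 ± 0.34 in cKOt. Other tubule classes varied. In CD-like nuclei the Ctrl and cKOt values were -1.39 ± 0.32 and -1.32 ± 0.33, and in CNT-like nuclei -0.89 ± 0.29 and -0.83 ± 0.27. In IC-like nuclei they were -0.54 ± 0.35 and -0.96 ± 0.32, and in thick ascending limb-like nuclei -0.88 ± 0.28 and -0.67 ± 0.28. 9630014M24Rik was at 80.1 and 75.7 at ZT4 against 32.9 and 34.0 at ZT16 in Ctrl, and 66.9 and 65.2 against 35.9 and 28.9 in cKOt in Mes/Per-like nuclei. These Mes/Per-like values gave log2 fold changes of -1.24 ± 0.26 in Ctrl and -1.17 ± 0.27 in cKOt, beside -1.30 ± 0.25 and -0.70 ± 0.25 in PT-like nuclei. In vascular-like nuclei the log2 fold changes of 9630014M24Rik were -0.65 ± 0.31 in Ctrl and -0.87 ± 0.33 in cKOt. In distal convoluted tubule-like nuclei they were -0.76 ± 0.51 and -0.96 ± 0.48, and in CNT-like nuclei -0.76 ± 0.36 and -0.53 ± 0.31. Differences between classes inside and outside the tubule were not tested for either lncRNA. In smooth muscle and juxtaglomerular-like nuclei, 9630014M24Rik was at 60.1 and 12.3 at ZT4 against 52.4 and 40.0 at ZT16 in Ctrl, and 104 and 106 against 53.8 and 26.6 in cKOt. The Ctrl time points overlapped there, from 13 and 17 UMIs, with the mean lower at ZT4, and those of cKOt did not, from 42 and 21 UMIs. Free RNA can give UMIs in nuclei that do not express a gene. In podocyte-like nuclei, a class with low levels of all 3, Gm28905 was at 3.69 ± 4.96, 2700054A10Rik at 3.79 ± 5.72 and 9630014M24Rik at 3.84 ± 5.03 CPM, from 9 UMIs each, and the part of free RNA in the levels of the other classes was not tested.

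**Figure D5:**
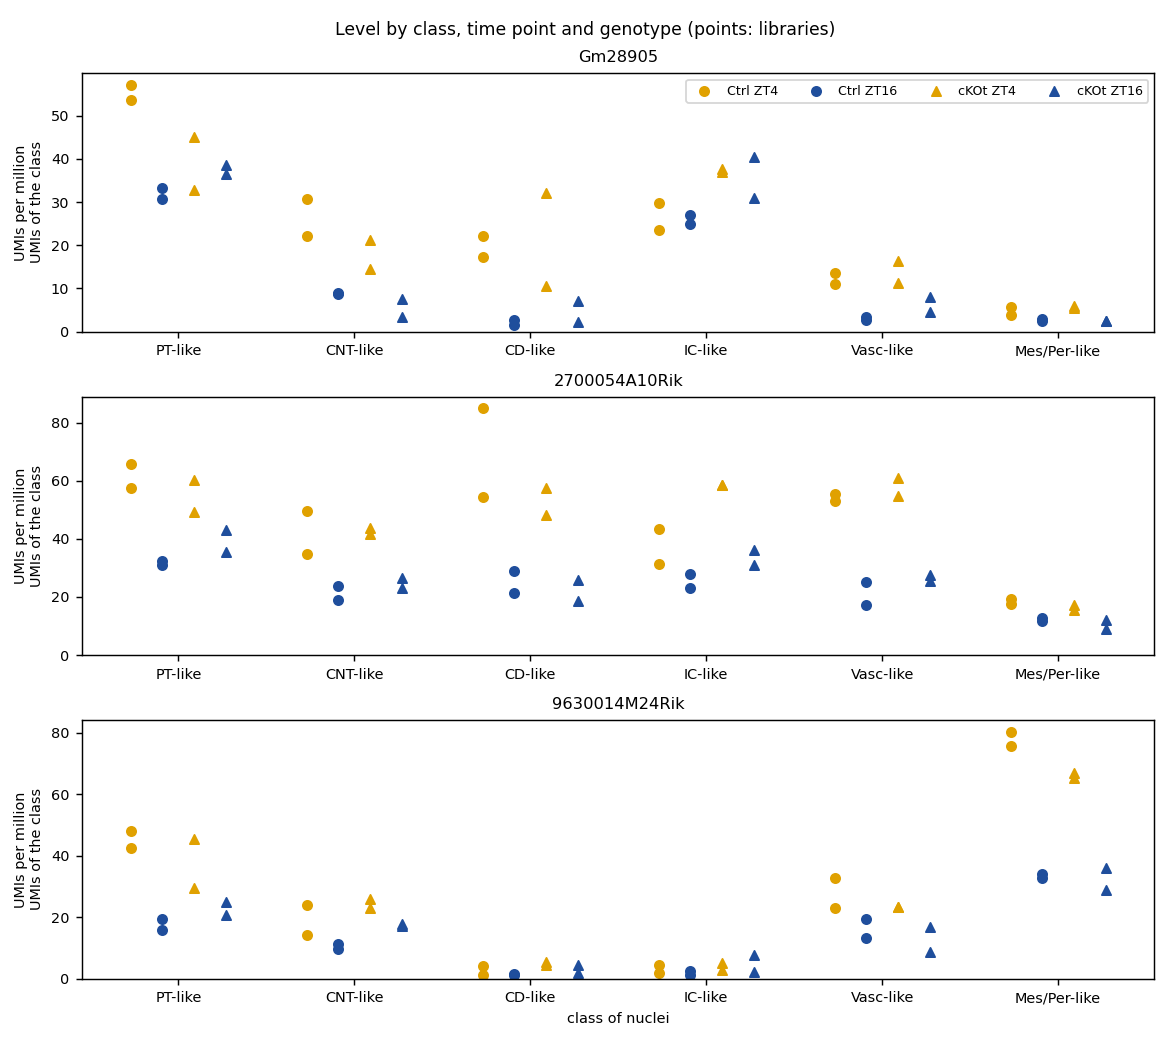
Level of Gm28905, 2700054A10Rik and 9630014M24Rik (panels; UMIs per 1000000 UMIs of the class, vertical axes from 0) in 6 classes of nuclei, with 1 point per library, circles Ctrl and triangles cKOt, orange ZT4 and blue ZT16. The ZT4 and ZT16 points of Gm28905 are apart in CD-like and CNT-like nuclei of both genotypes but mixed in IC-like nuclei.

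The 8 loci lie on 8 different chromosomes (GENCODE vM39, GRCm39). All are annotated as lncRNA genes. 4930528G23Rik (chr6:148561476-148579500, minus strand), Gm44866 (chr7:119320034-119334983, minus) and Gm42723 (chr19:38288531-38303718, minus) are the shorter loci, with spans of 15.0 kb for Gm44866 and 15.2 kb for Gm42723. Gm31126 (chr13:50399939-50510331, plus), Gm28905 (chr10:9852371-10130323, plus), 2700054A10Rik (chr17:13673781-13889153, minus), 9630014M24Rik (chr18:38734534-38971060, plus) and 4930414F18Rik (chr16:12446948-12763828, minus) span 110.4 to 316.9 kb. The sources used here do not say whether reads were counted by strand, so reads of genes that overlap on opposite strands may not be told apart. On the same strand, the lncRNA 4930598N05Rik overlaps Gm28905 and its span meets an exon of Gm28905. Reads of that pair may not be told apart with strand known either. Gm42723 overlaps Lgi1 on the opposite strand, a gene known for a secreted protein of synapses. Lgi1 was at 2.16 and 1.09 CPM at ZT4 and 0.312 and 0.228 at ZT16 in Ctrl, and at 0.929 and 1.74 CPM at ZT4 and 0.231 and 0.295 at ZT16 in cKOt. ZT4 was thus above ZT16 for both genes of this pair, and the log2 fold changes of Lgi1 were -2.57 ± 0.48 in Ctrl (edgeR over mRNAs, adjusted p = 0.127) and -2.34 ± 0.48 in cKOt (adjusted p = 0.198), which did not pass the test.

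9630014M24Rik overlaps Spry4, an inhibitor of receptor tyrosine kinase signalling, on the opposite strand and ends 0.7 kb from Fgf1, a fibroblast growth factor. Spry4 gave a log2 fold change of -0.15 ± 0.22 from ZT4 to ZT16 in Ctrl (edgeR adjusted p = 0.873) and 0.08 ± 0.22 in cKOt (edgeR adjusted p = 0.969). Gm44866 lies beside Thumpd1 and 25.2 kb from Acsm3, an acyl-CoA synthetase gene, and 4930528G23Rik lies 92.7 kb from the importin gene Ipo8. The protein-coding neighbours on each side that were tested, and the overlapping Lgi1, Spry4 and Spata31e3, gave no edgeR call for time in either genotype, where 24 of 16165 mRNAs were called in Ctrl and 0 of 16069 in cKOt, so nothing is read from this count. Further lncRNAs, pseudogenes and small RNA genes overlap most of the 8 loci. 1 of the 17 protein-coding neighbours tested was called for genotype, where 0.948% of mRNAs were. It was Shisa9, the nearest protein-coding gene on 1 side of 4930414F18Rik at 358.2 kb, which was higher in cKOt (1.12 ± 0.13, edgeR adjusted p = 0.00700), while 4930414F18Rik gave 0.21 ± 0.16 (adjusted p = 0.841).

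Across the 8 libraries, the log2 levels of the members correlated with each other, which the choice by time differences entails. The most alike pairs were 9630014M24Rik with 4930414F18Rik and 4930528G23Rik with Gm44866 (both Pearson r = 0.98, as a description over 8 libraries that share 4 groups). Among 14633 lncRNAs and mRNAs with at least 50 UMIs in every library, the genes most like 4930528G23Rik were Gm28807 (r = 0.964), Papss2 (r = 0.959) and Gm36814 (r = 0.954). Papss2 makes the sulfate donor of sulfotransferases. For Gm44866 they were Olfm4 (r = 0.970), Tmem106a (r = 0.966) and Ctsa (r = 0.963), and for Gm42723 Dnah7c (r = 0.993), Bcas3 (r = 0.989) and Gm45064 (r = 0.988). Dnah7c belongs to the axonemal dynein heavy chains and Ctsa is a lysosomal carboxypeptidase. Gm31126 was most like Ddost (r = 0.990), a subunit of the oligosaccharyltransferase of the endoplasmic reticulum, Gm5165 (r = 0.977) and Tatdn1 (r = 0.967). Gm28905 was most like Serac1 (r = 0.962), Sema4c (r = 0.960) and Zfp991 (r = 0.954), and 2700054A10Rik most like Fkbp15 (r = 0.980), F5 (r = 0.976), the gene of coagulation factor V, and Ppfibp2 (r = 0.970). For 9630014M24Rik the genes were Gm44764 (r = 0.986), 4930505A04Rik (r = 0.982) and Dnah7b (r = 0.982), and for 4930414F18Rik 9630014M24Rik (r = 0.981), 4930505A04Rik (r = 0.980) and Vps39 (r = 0.977). With 8 libraries and so many genes, coefficients of this size are the top of a long list and are no finding.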

How the data were processed

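The authors deposited, per library, a matrix of UMI counts per gene and nucleus. By the methods and the submitters' processing notes, reads were demultiplexed with bcl2fastq 2.20 and counted with Cell Ranger 7.1.0. The reference is mm10 in the methods but GRCm39 in the notes. The counts are raw, not normalized. A nucleus was kept if it had 500 or more genes, 800 or more UMIs and no more than 2% of UMIs from mitochondrial genes. Scrublet (scanpy 1.11.5) called 5.37% doublets, which were kept. Clusters came from mRNAs alone (Seurat 5.3.0, 1000 principal components). A cluster of at least 20 nuclei took the name of the marker list with the highest mean z, of at least 0.9, with 3 or more markers 2-fold up and in 10% of its nuclei, and stayed unnamed where 50% or more of its nuclei were called doublets. Since proximal clusters resembled both proximal lists, they were merged as PT-like by a rule set after the clusters were seen: best list PCT or PST, with 3 of their pooled markers up.

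Counts were summed per library and fitted with edgeR 4.0.16 (quasi-likelihood, TMM), lncRNAs apart from mRNAs, in 1 model of 4 groups. Genes needed at least 5 counts in both replicates of a group compared. All 8 members met this in the sums over all nuclei and in PT-like against other nuclei, some through 1 side alone as the text says. Within single classes some members did not meet it, and no fold change is given for them there. The p-values were adjusted by Benjamini-Hochberg over all lncRNAs tested. PT-like and other nuclei were compared with the library as a block. Standard errors of edgeR estimates were derived as the absolute log2 fold change over the square root of the F statistic of the test, so they are approximate. The fits were tested on simulated data with known changes. These were larger than the time differences of several members and than the genotype estimates of all 8. Smaller differences, those of the genotype test among them, were thus not covered. DESeq2 1.42.0, other normalizations and filters, doublet removal, other clusters, the replicate number as a block and leaving out each library were alternatives. p-values measure the spread between mice of 1 experiment, and intervals of counting are wide for the lncRNAs with few UMIs.

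The members and the gene lists were chosen with earlier results of these data known. Levels are UMIs per 1000000 (CPM). Genes named besides the members are genes that overlap them, the nearest protein-coding gene on each side, the 3 most alike in level and the list of 16 clock genes, with values for 3 of these. Same-numbered libraries were not paired by the labels. Replicates were no duplicates (chi-square over its degrees of freedom 12.2 to 23.5).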

Additional observations from a re-analysis of the deposited data

How the results depend on the processing

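The location result and the genotype result of the 8 lncRNAs kept their direction and side of the threshold in all 128 and 128 combinations of member and setting run, where for location 4930528G23Rik and Gm42723 are descriptions only. Adjusted p for location stayed at or below 0.00973 and for genotype at or above 0.264. The size of the location estimates was less stable than their direction. Over the settings Gm28905 ranged from 1.22 to 2.79, 9630014M24Rik from 0.69 to 1.53 and Gm44866 from 2.43 to 4.17, while 2700054A10Rik stayed between 0.91 and 1.09. Of the time differences, 135 of 136 in Ctrl and 125 of 128 in cKOt moved by less than 1 standard error. The others were Gm28905 in Ctrl without Ctrl ZT16 replicate 2 (-1.05), Gm28905 and Gm31126 in cKOt without cKOt ZT4 replicate 2 (-0.0379 and 2.29) and Gm42723 in cKOt without cKOt ZT16 replicate 2 (-3.34). With 1 library left out, the difference of time effects of Gm31126 ranged from -0.92 to 0.080 (without cKOt ZT4 replicate 2) and that of 2700054A10Rik from -0.034 (without cKOt ZT16 replicate 2) to 0.36, and both changed sign. The class with the highest level stayed the same for all 8 lncRNAs with clusters from 50 principal components and without doublets, and for 7 of 8 when scaled to lncRNA UMIs, where 9630014M24Rik was highest in Mes/Per-like nuclei. Counts over all lncRNAs, the background of the text, moved more, and the cause was not tested. For time in Ctrl, 27 lncRNAs became 53 with DESeq2, 137 with no low-count filter and 0 to 59 when 1 library was left out (0 without Ctrl ZT4 replicate 1 or either Ctrl ZT16 library, 9 without Ctrl ZT4 replicate 2, 59 and 56 without cKOt ZT4 replicate 1 and 2). For time in cKOt, 21 became 36 with DESeq2, 98 with no filter, 2 with normalization over lncRNAs and mRNAs together, 12 without doublets and 2 to 28 with 1 library left out (2 without any 1 of the 4 ZT16 libraries, 6 without cKOt ZT4 replicate 2). For the difference of time effects, 0 became 1 with DESeq2, 21 with no filter, 1 without doublets and 0 to 1 with 1 library left out. For genotype, 72 became 45 with the joint normalization, 150 with no filter and 36 to 72 with 1 library left out (36 and 46 without Ctrl ZT16 replicate 1 and 2). Joint normalization changed the split of higher and lower calls from 10 and 17 to 1 and 19 for time in Ctrl and from 49 and 23 to 26 and 19 for genotype. It moved the median difference of time effects over all lncRNAs from -0.04 to 0.08. The labels give the groups the same replicate numbers, but nothing ties same-numbered mice. The deviations of same-numbered libraries correlated at r = -0.16 to 0.45. With the replicate block, 26 lncRNAs were called for time in Ctrl, 7 for time in cKOt, 0 for the difference and 78 for genotype. A crossed pairing of Ctrl at ZT16, added after seeing the data, called 67 for time in Ctrl. With PCT and PST clusters named apart, also added after seeing the data, 2776 lncRNAs differed between proximal and other nuclei, beside 3310. Depth limits Gm42723 and 4930528G23Rik most, with as few as 2 and 10 UMIs in a library.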
